A study of Mus musculus with 2 samples.

Results

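Signals of 10 genes that control whether a resting lymphocyte enters the cell cycle were followed in the 2 main mature B cell populations of mouse spleen. The genes were chosen by symbol for the roles of their products, by a rule that uses no measured value. Earlier results of these data were known when the choice was made. The genes include the D cyclins Ccnd2 and Ccnd3 and their kinases Cdk4 and Cdk6. The kinase inhibitors Cdkn1a, Cdkn1b, Cdkn2c and Cdkn2d and the pocket proteins Rb1 and Rbl2 complete the group. All 10 had at least 1 probe set annotated to that gene alone, among 12393 genes so annotated on the array, and together they had 21 such probe sets. The data were 2 Affymetrix arrays, 1 of follicular and 1 of marginal zone B cells, both from wild type female C57BL/6 mice whose age the labels do not give. B cells from the spleens of 3 mice were enriched with beads against B220 and sorted as CD23 high and CD21 intermediate (follicular) or CD23 intermediate and CD21 high (marginal zone), and the sorted cells were pooled before RNA was extracted. Whether the same mice gave both populations is not stated. With 1 array per population there is no replicate error and no test, so every difference below is a size that describes these 2 arrays.

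Most mature B cells rest outside the cell cycle until antigen or a mitogen reaches them. To leave rest, a cell makes D-type cyclins, which bind CDK4 or CDK6 and phosphorylate the retinoblastoma family of pocket proteins, and this frees E2F transcription factors to switch on the genes of DNA synthesis. The INK4 inhibitors (p18 from Cdkn2c and p19 from Cdkn2d) block CDK4 and CDK6 directly, the Cip/Kip inhibitors (p21 from Cdkn1a and p27 from Cdkn1b) hold back the cyclin E and cyclin A kinases, and p130 from Rbl2 represses E2F targets in resting cells. Marginal zone B cells are known to enter division sooner than follicular cells when stimulated.

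Promoter sequence was available for 8 of the 10 genes, as 11 start sites from RefSeq (GRCm38.p6). Ccnd2 and Rb1 were the genes without an entry. The windows read here are the 250 bases before each start. They are shown for Cdk4, whose window has the most E-boxes of these genes, for Cdkn1a, a textbook p53 target, and for Cdkn1b and Cdkn2d, the members with the largest signal differences. Each is written 5′ to 3′ on the strand of the gene. Capitals mark E-boxes (CACGTG, the site of MYC and related factors) in Cdk4, matches to the p53 consensus decamer in Cdkn1a, and GC boxes (GGGCGG, read on both strands) in Cdkn1b and Cdkn2d.
Cdk4, chr10:127063285-127063534, plus strand: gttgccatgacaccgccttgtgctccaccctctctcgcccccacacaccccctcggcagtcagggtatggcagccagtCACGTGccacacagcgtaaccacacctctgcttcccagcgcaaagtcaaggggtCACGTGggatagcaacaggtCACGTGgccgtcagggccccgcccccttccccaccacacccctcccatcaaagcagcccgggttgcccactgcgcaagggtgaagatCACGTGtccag
Cdkn1a, the upstream of its 2 start sites, chr17:29090729-29090978, plus strand: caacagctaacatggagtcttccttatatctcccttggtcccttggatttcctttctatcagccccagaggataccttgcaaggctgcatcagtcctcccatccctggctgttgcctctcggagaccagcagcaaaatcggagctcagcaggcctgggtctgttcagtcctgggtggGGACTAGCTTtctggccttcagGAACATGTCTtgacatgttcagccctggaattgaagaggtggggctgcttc
Cdkn1b, chr6:134920151-134920400, plus strand: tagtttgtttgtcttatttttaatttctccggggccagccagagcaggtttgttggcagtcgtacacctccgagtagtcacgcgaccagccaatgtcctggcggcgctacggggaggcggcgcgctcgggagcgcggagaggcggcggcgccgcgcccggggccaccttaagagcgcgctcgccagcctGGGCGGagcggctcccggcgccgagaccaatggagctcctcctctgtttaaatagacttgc
Cdkn2d, chr9:21291210-21291459, minus strand: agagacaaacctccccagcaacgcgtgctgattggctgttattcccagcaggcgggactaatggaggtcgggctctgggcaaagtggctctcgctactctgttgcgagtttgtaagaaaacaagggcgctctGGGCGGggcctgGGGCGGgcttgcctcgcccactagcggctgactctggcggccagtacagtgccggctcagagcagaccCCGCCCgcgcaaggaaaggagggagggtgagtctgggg

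The Cdk4 window holds 4 E-boxes, the nearest from 11 to 6 bases before the start. Of 32851 windows of the same length, 6.02% hold at least 1 E-box and 7 windows hold 4 or more. Cdk6 has 1 E-box in its window, and the other windows of these genes have none. The 2 marked p53 decamers of Cdkn1a lie from 73 to 64 and from 51 to 42 bases before the start, with other bases between them. The bases directly after the second match the consensus apart from their first base. The search took exact matches only, so these bases are not marked. Of all windows, 7.13% hold at least 1 such decamer, and the Cdkn2d window holds 1. GC boxes occur in 32.7% of all windows, with 1 in Cdkn1b, 3 in Cdkn2d, 1 in Cdk4, 3 in 1 Cdkn2c window, 2 in 1 Cdkn1a window, and 2 and 1 in the Ccnd3 windows. The other windows of these genes held none. The forkhead core TGTTTAC, found in 3.17% of windows, was matched in 1 Ccnd3 window, the cell cycle element TTTGAA (16.0% of windows) in Rbl2, and an E2F core (TTNNCGC, with C or G at each N, 7.89% of windows) in 1 Cdkn2c window. All motifs were searched on both strands, and the E2F core and the GC box can overlap. A match is only the presence of these letters.

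Signals are MAS5 intensities, which Affymetrix software computes from the matched and mismatched probes of a probe set, scaled here so that both arrays have the same trimmed mean. They are given with follicular before marginal zone, and a log2 ratio is marginal zone over follicular. Values under 12.7, the median of all signals, lie where MAS5 has no reliable order, so they were raised to this floor before a ratio was taken. Only probe sets with a signal over the floor on at least 1 array were taken as measured. That held for 16 of the 21 probe sets and for 9 of the 10 genes; Cdk6 did not pass.

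Seen over the group, the cyclin side and the inhibitor side pointed in opposite directions by the brightest probe sets, and the differences were small. On the cyclin side, only Ccnd2 had several measured probe sets that shared a direction, and both signals of Ccnd3 were close to the floor. Ccnd2, Ccnd3 and Cdk4 had the higher signal in marginal zone B cells by their brightest probe sets, although the probe sets of Cdk4 disagreed. All 4 inhibitors and both pocket proteins of the group had the higher signal in follicular B cells. Relatives outside the group, picked with their values in view, went the other way. The D cyclin gene Ccnd1 was at 24.0 and 16.2. The Cip/Kip inhibitor gene Cdkn1c was at 5.36 and 16.4, with the follicular signal under the floor. Of the 9 measured genes, 3 had the higher signal in marginal zone and 6 in follicular cells. Among all 7695 measured genes, 47.8% were brighter in marginal zone and 52.2% in follicular cells, so neither direction was rare. By probe set, 8 of the 9 measured for cyclins and kinases, 5 of them of Ccnd2, were higher in marginal zone cells, a direction shared by 48.1% of all measured probe sets. All 7 measured for inhibitors and pocket proteins were higher in follicular cells, as were 51.9% of all measured probe sets. At 2-fold or more, 0 of the 9 genes were on the marginal zone side, where 4.39% of measured genes were, and 1, Cdkn2d, was on the follicular side, where 4.86% were. At 1.5-fold or more the counts were 0 and 2, beside 13.6% and 15.8% of measured genes. The median log2 ratio of the 9 was -0.43, against -0.03 for all measured genes. Cdkn2d was measured only through its follicular signal, so it could pass only with a difference in that direction. In bulk samples like these, fewer cells that make a transcript and less of it per cell cannot be told apart.

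**Figure D1:**
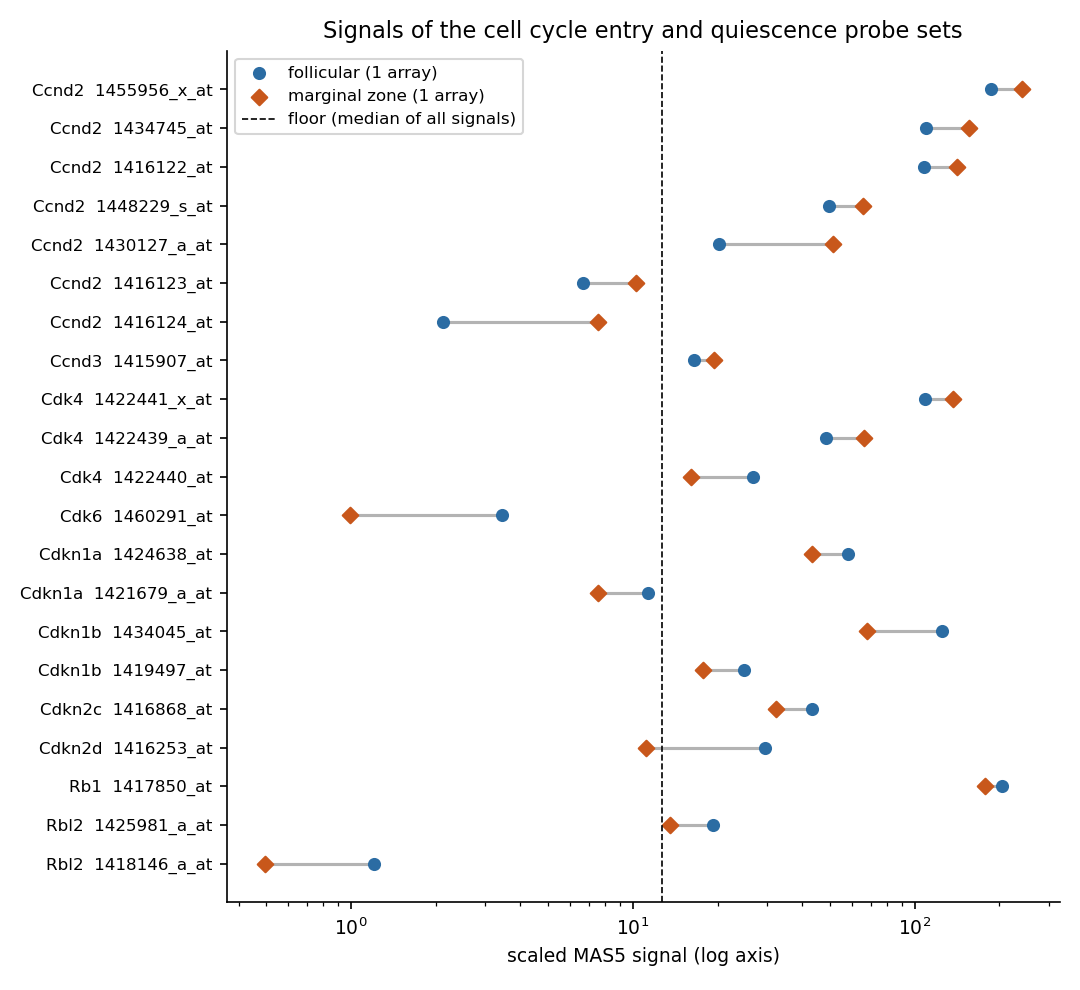
Scaled MAS5 signal (log axis) of each of the 21 probe sets, with a circle for the follicular and a diamond for the marginal zone array and a dashed line at the floor of 12.7. The diamonds lie to the right for the Ccnd2 and Ccnd3 probe sets and for 2 of 3 Cdk4 probe sets, and to the left for every probe set of the inhibitors and pocket proteins.

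The cell labels were checked with marker genes, before single genes were read. The 5 B cell markers read were over the floor on both arrays, from Ms4a1 (CD20) at 1754 and 1878 to Pax5, lowest at 20.7 and 16.6. Of the 5, only Ms4a1 was higher in marginal zone cells. The other 4 were higher in follicular cells, as were 52.2% of all measured genes, with Cd79b furthest apart at 1040 and 546. The median log2 ratio of these markers was -0.38, beside -0.43 for the measured members. The sort genes Fcer2a (727 and 89.6) and Cr2 (278 and 890) followed the gates. Macrophage markers were low but higher on the marginal zone array. Of 12, 9 were measured and all 9 were higher there, as were 47.8% of all measured genes. Of the 9, 5 (Cd5l, C1qb, Cd68, Vcam1 and Cd14) were under the floor in follicular cells and so could be measured in this direction only. Csf1r (17.3 and 42.5) and Cd5l (11.1 and 26.7) were past 2-fold, beside 4.39% of measured genes. The summed signal of all 12 was 101 and 234. Marginal zone signals of the 9 ran from 14.8 (Cd14) to 42.5 (Csf1r), while C1qa, C1qc and Hmox1 were under the floor on both arrays and 0 markers were at exactly 0. Plasma cell markers summed to 1032 and 1250.4, mostly from Irf4 (532 and 527) and Xbp1 (397 and 659). On each side 1 of 5 measured genes was at least 2-fold apart: Prdm1 at 12.7 and 30.9, and Sdc1 at 68.3 and 4.35. Of all measured genes, 4.39% were that far apart towards marginal zone and 4.86% towards follicular. The measured probe sets of Sdc1 ran from -2.43 to -0.32 on the log2 scale, and those of Xbp1 from -0.98 to 0.73. T cell markers summed to 44.3 and 22.1, with 2 of the 7 on the array measured. Of dendritic cell, neutrophil, natural killer cell and erythroid markers, 7 in all were measured and 0 reached 2-fold. The part of macrophages and other cells in the ratios below was not tested.

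Ccnd2 encodes cyclin D2, the D cyclin that B cells make on antigen receptor stimulation. By its brightest probe set it was at 187 in follicular and 240.4 in marginal zone cells, 1.28-fold above follicular. The next probe sets were at 110.04 and 156 (1.42-fold) and at 108 and 141 (1.31-fold). Both of these lack a suffix that marks shared sequence, and marginal zone cells gave the higher signal with each. The fourth was at 49.6 and 65.5 (1.32-fold), and the fifth, the dimmest, at 20.3 and 51.6 (2.54-fold). The last is the only one past 2-fold, a size that 4.27% of all measured probe sets reached in this direction and 4.76% in the other. The other two Ccnd2 probe sets were under the floor on both arrays, at 6.67 and 10.3 and at 2.12 and 7.52. The log2 ratios of the 5 measured probe sets ran from 0.36 to 1.34, with a mean of 0.60 and an SD of 0.42. Of 70 genes with 5 measured probe sets, 22 (31.4%) had all 5 on the same side. These probe sets read the same RNA, so their agreement speaks of the probes and not of other mice.

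Ccnd3, which encodes cyclin D3, the D cyclin of pre-B cell and germinal centre division, has 1 probe set on the array. It was at 16.6 and 19.5, 1.18-fold above follicular. Of all measured genes, 30.3% lay at least as far in that direction. The signals of both arrays were close to the floor.

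Cdk4, the kinase partner of the D cyclins, gave different answers by probe set. The brightest was at 109 and 136 (1.26-fold above follicular) and the next at 48.7 and 66.1 (1.36-fold). The third was at 26.7 and 16.1, 1.65-fold above marginal zone. The log2 ratios thus ran from -0.73 to 0.44, and their mean was 0.01. The suffixes of the first and second probe sets (_x_at and _a_at) mark probes that can match other sequences or several transcripts of the gene, and the third has no such suffix. The direction of Cdk4 is therefore not settled by these arrays. Myc, whose product binds E-boxes such as those of the Cdk4 window, was at 78.6 and 197, 2.50-fold above follicular by its 1 measured probe set. It was picked with its values in view.

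Cdk6, the other D cyclin kinase, was at 3.44 and 0.990 by its 1 probe set, under the floor on both arrays. No order can be read from these signals. Low signal from a single probe set is not evidence that the gene is silent.

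The inhibitors of the group were all brighter in follicular B cells. Cdkn1b, which encodes p27, a protein that keeps resting lymphocytes out of S phase, was at 125 in follicular and 67.6 in marginal zone cells by the brighter of its probe sets, 1.85-fold above marginal zone. Of all measured genes, 7.08% lay at least as far in this direction. Its other probe set was at 24.9 and 17.8, 1.40-fold above marginal zone. The probe sets shared a direction, as did those of 66.3% of the 1731 genes with 2 measured probe sets. Cdkn1b did not reach 2-fold by either.

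Cdkn2d, which encodes the INK4 protein p19, was at 29.5 in follicular and 11.2 in marginal zone cells. The marginal zone signal was under the floor, so the fold is at least 2.33, higher in follicular cells, and the scaled signals taken without the floor give a log2 ratio of -1.40. Of all measured genes, 2.64% lay at least as far in this direction. It has 1 probe set on the array, so no second reading exists. Among genes with a mean signal from 12.7 to 25, where Cdkn2d lies, 4.40% were at least 2-fold above marginal zone.

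Cdkn2c, which encodes the INK4 protein p18, was at 43.4 and 32.3 by its 1 probe set, 1.34-fold above marginal zone. Cdkn1a, the p53 target that encodes p21, was at 58.1 and 43.2 by its measured probe set, 1.35-fold above marginal zone. Of all measured genes, 22.6% lay at least as far as Cdkn2c and 22.4% as far as Cdkn1a in that direction, so neither stands out by size. The second Cdkn1a probe set was under the floor on both arrays, at 11.3 and 7.52.

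Both pocket protein genes of the group were brighter in follicular cells by less than 1.5-fold. Rb1, the retinoblastoma gene, was at 205 in follicular and 178 in marginal zone cells by its 1 probe set. Its 1.15-fold difference towards follicular cells was the smallest of the 9 measured genes, and 37.1% of measured genes lay at least as far. Rbl2, which encodes p130, was at 19.3 and 13.6, 1.42-fold above marginal zone, with the marginal zone signal just over the floor. Its other probe set was at 1.21 and 0.495, under the floor on both arrays.

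**Figure D2:**
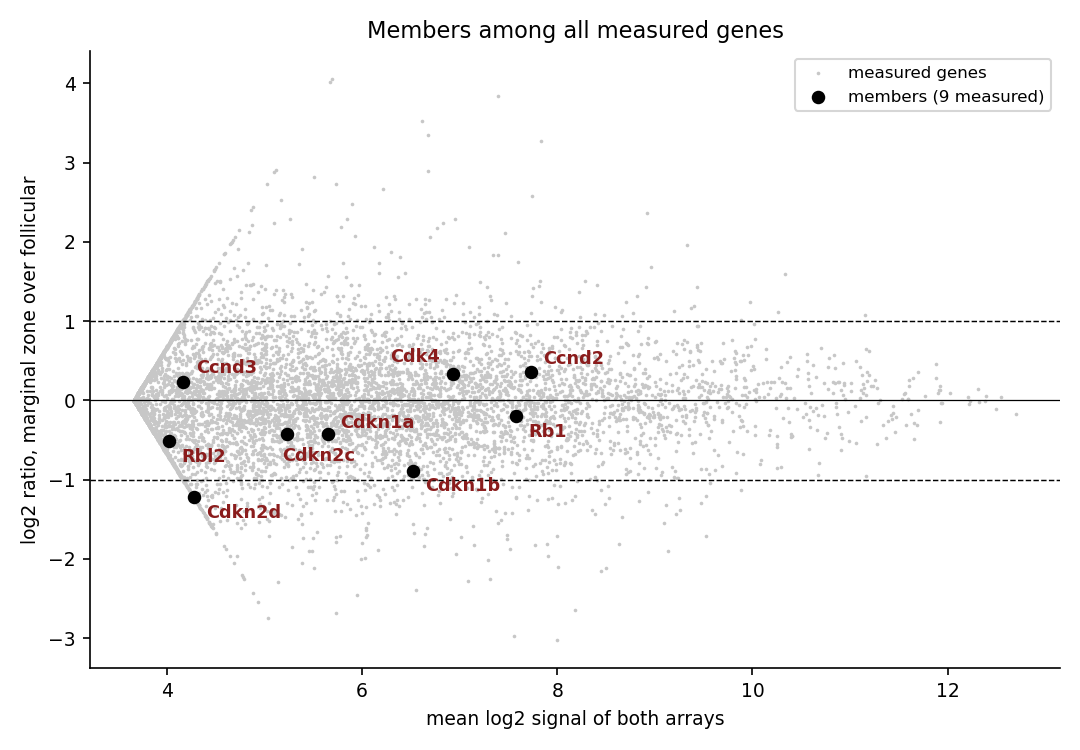
Marginal zone over follicular log2 ratio against the mean log2 signal of both arrays, for 7695 measured genes (grey) and the 9 measured members (black, named). Dashed lines mark 2-fold; Cdkn2d lies past it, and the other 8 lie between the lines.

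The spread of ratios among all genes gives the scale for these differences. For genes with a mean signal from 100 to 200, the quartiles of the log2 ratio were -0.39 and 0.31, and for those above 200 they were -0.30 and 0.28. Ccnd2 by its brightest probe set (mean signal above 200) and Cdk4 (from 100 to 200) lay just above the upper quartile of their signal range, and Rb1 (from 100 to 200) lay between the quartiles. Between 50 and 100 the quartiles ran from -0.40 to 0.34. Cdkn1b lay well below the lower quartile of that range, and Cdkn1a, at -0.43, just below it. Between 25 and 50 they ran from -0.44 to 0.35, which holds Cdkn2c. Under 25 they ran from -0.38 to 0.31, with Ccnd3 inside and Rbl2 below. The SD between probe sets of 1 gene, 0.43 on the log2 scale over 2622 genes, was as large as or larger than the log2 ratio of 6 of the 9 genes. Only Cdkn1b, Cdkn2d and Rbl2 exceeded it.

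The other genes of the pathway were read from lists by role, chosen with earlier results of these data known. The lists held 113 genes in all, of which 78 were measured. At 2-fold or more, 5 of these were on the marginal zone side (6.41%, against 4.39% of measured genes) and 3 on the follicular side (3.85%, against 4.86%), and their median log2 ratio was -0.03. As a whole the pathway was thus close to the background in both directions.

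Of 22 other genes of G1 and the G1/S transition, 13 were measured, with a median of -0.38. Of the 13, 6 were brighter in marginal zone and 7 in follicular cells, beside 47.8% and 52.2% of all measured genes. Tfdp1, the DP1 partner through which E2F proteins bind DNA, was the 1 gene past 2-fold. By its 1 probe set it was at 25.8 and 71.2, 2.76-fold above follicular. Of all measured genes, 4.39% were past 2-fold in that direction. Ccne1 and Ccne2, the E cyclins that act after the D cyclins, were both under the floor on both arrays (4.85 and 2.47, and 11.2 and 11.4), as was E2f3. These 3 were picked with their values in view. The MuvB core joins p130 in the DREAM complex, which represses cell cycle genes at rest, and later joins the activators encoded by Mybl2 and Foxm1. Of 5 measured genes of these complexes, 0 reached 2-fold, beside 4.39% of all measured genes towards marginal zone and 4.86% towards follicular. Dyrk1a, the kinase that starts DREAM assembly, had a log2 ratio of -0.45, and Lin37, a MuvB subunit, of 0.08. Mybl2 was at 9.90 and 15.04, at least 1.19-fold above follicular.

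Genes that turn over D cyclins or p27 had a median of 0.38 over 10 measured genes, with 7 higher in marginal zone cells (47.8% of all measured genes were). In either direction 0 were past 2-fold, beside 4.39% of all measured genes towards marginal zone and 4.86% towards follicular. Rnf123, a ubiquitin ligase for p27 in G1, was at 41.9 and 72.9, 1.74-fold above follicular. Fbxo4, an F-box protein reported for D cyclin turnover, was at 50.5 and 73.1, 1.45-fold above follicular. Skp2, the F-box protein that sends p27 for degradation in S phase, was at 23.04 and 16.1, 1.43-fold above marginal zone. By the 1 probe set of Rnf123 and the brightest of Skp2, these p27 ligases lay on opposite sides. The 3 measured probe sets of Skp2 ran from -0.51 to only -0.03 on the log2 scale.

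Regulators of lymphocyte quiescence were mostly brighter in follicular cells. Of 14 measured, 12 were higher there (52.2% of all measured genes were), 3 of them at least 2-fold (4.86% of all measured genes were), and 0 were at least 2-fold above follicular. Their median log2 ratio was -0.45. Slfn2, a schlafen protein needed for quiescence of T cells and monocytes, was at 84.7 and 20.5, 4.13-fold above marginal zone by its 1 probe set. Foxo3, a forkhead factor that activates Cdkn1b and Rbl2, was at 52.9 and 20.1, 2.64-fold above marginal zone, and its measured probe sets were at -1.40 and -0.84. Klf2, a zinc-finger factor of lymphocyte quiescence and homing, was at 1112 and 452, 2.46-fold above marginal zone. These regulators and the inhibitors above were higher on the same array, and no link between them was tested.

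Genes of DNA synthesis were divided between the populations. Of 15 measured S phase genes, 6 were brighter in marginal zone and 9 in follicular cells, beside 47.8% and 52.2% of all measured genes. By their brightest probe sets 0 passed 2-fold in either direction, beside 4.39% and 4.86% of all measured genes, and the median was -0.11. Other probe sets of Mcm2 and Mcm3, picked with their values in view, did pass it. The lowest of Mcm2 was at -1.16 on the log2 scale, and the 5 of Mcm3 ran from -1.70 to 0.50. Rpa1, a single-strand DNA binding protein, was at 579 and 310.2, 1.87-fold above marginal zone. Mcm6, a subunit of the replicative helicase, was at 84.1 and 154, 1.83-fold above follicular. The replication factor Mcm10 was at 4.04 and 21.3, at least 1.68-fold above follicular, though another measured probe set of Mcm10 gave a log2 ratio of only 0.02.

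Of the 12 measured genes of G2 and mitosis, 7 were brighter in marginal zone and 5 in follicular cells, with a median of 0.26. At 2-fold or more, 3 were on the marginal zone side (4.39% of all measured genes were) and 0 on the follicular side (4.86%). Each of the 3 was under the floor in follicular cells, so it could be measured in that direction only. Mki67, the Ki-67 antigen of dividing cells, was at 9.40 and 50.1, at least 3.95-fold higher. Ccna2, cyclin A2, was at 9.20 and 31.6 (at least 2.49-fold), though its other measured probe set was only at 0.20 on the log2 scale. Nusap1, a spindle protein, was at 10.4 and 30.2 (at least 2.38-fold). Cenpa, a centromere histone picked with its values in view, went the other way, at 170.4 and 97.6, 1.75-fold above marginal zone. Cdk1, Ccnb2, Plk1 and Bub1, also picked with their values in view, were under the floor on both arrays, and 7 of the 19 genes of this list on the array gave no signal that could be ordered.

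Because p21 is best known as a p53 target, other p53 pathway genes were read beside it. Of 9 measured, 6 were higher in marginal zone cells, beside 47.8% of all measured genes, with a median of 0.23. Gadd45a, a stress-response gene, was at 52.5 and 112, 2.13-fold above follicular, and was the 1 gene past 2-fold, beside 4.39% of all measured genes in that direction.

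**Figure D3:**
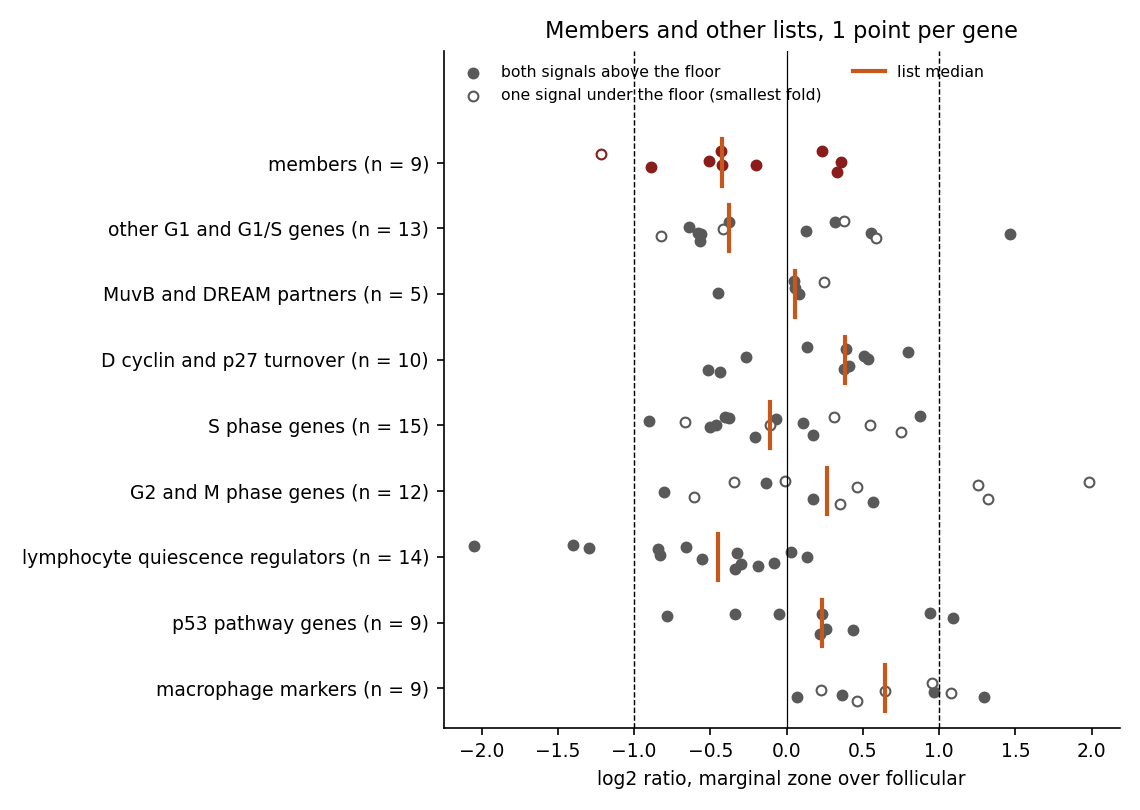
Marginal zone over follicular log2 ratio for each measured gene of the members, 7 other lists and the macrophage markers. Open points have 1 signal under the floor, orange bars are list medians and dashed lines mark 2-fold; medians run from -0.45 for quiescence regulators to 0.64 for macrophage markers.

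Other ways of processing the arrays left the direction of 8 of the 9 measured genes in place, but for most genes this was largely fixed beforehand. A floor or pseudocount cannot reverse the ratio of a probe set, and a probe set rule cannot act where only 1 was measured. For Ccnd3, Cdkn1a, Cdkn2c, Cdkn2d, Rb1 and Rbl2 only a scaling could thus have changed the direction, so its stability is no evidence for it. Without suffixed probe sets, Cdk4 took the probe set that is higher in follicular cells, at -0.73. Cdkn2d was under 2-fold with a pseudocount instead of a floor, at -0.82, and was not measured with the floor at the 75th percentile.

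**Figure D4:**
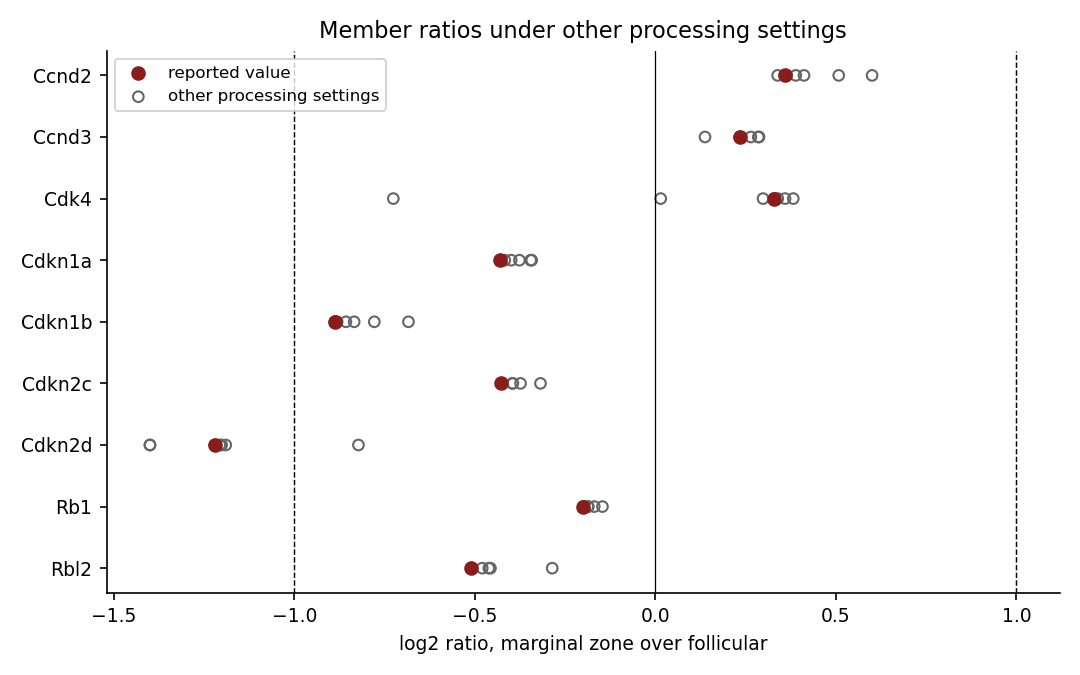
Marginal zone over follicular log2 ratio of each measured member as reported (filled) and under the other scalings, floors and probe set rules (open), with dashed lines at 2-fold. The points of each gene stay on 1 side of 0 apart from those of Cdk4, which run from -0.73 to 0.38.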

How the data were processed

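The deposited values are linear intensities of 22626 probe sets on 2 arrays. Per the submitters' processing notes the authors computed these intensities with MAS5; no version or scaling target is given in the sources used here. Deposited medians were 12.8 (follicular) and 12.6 (marginal zone). Each array was multiplied (by 1.01 and 0.990) to a common trimmed mean, leaving out 2% at each end, and values under the median of all scaled signals (12.7) were raised to it. Each gene is represented by the brightest of its measured probe sets (mean log2 of both arrays), which gave 7695 genes. Names came from the platform annotation: 20380 probe sets had 1 gene, 691 several and 1555 none. The Entrez identifiers of 20351 were found in the RefSeq table of GRCm38.p6, and 0 symbols changed.

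With 1 array per group no test was possible, and the number of arrays limits the precision. A difference counted as called at 2-fold. All 10 members are named with every probe set. From each other pathway list the text names each gene past 2-fold, or otherwise up to 3 with the largest ratio, and from marker lists the genes that set the range. Members and lists were chosen with earlier results of these data known. Alternatives were 3 scalings, 4 treatments of the floor, 2 probe set rules and thresholds of 1.5-fold and 3-fold. The procedure was tested on simulated data in which only bright genes were changed, by 2-fold or more. The noise added there was equal at all signals and was not estimated from these arrays. How well the procedure recovers smaller differences, those of dimmer genes or those under larger noise was not tested. Analyses used Python 3.11.15, numpy 2.4.6, pandas 2.3.3 and scipy 1.17.1.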

Additional observations from a re-analysis of the deposited data

How the results depend on the processing

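The directions of the 9 measured genes held under the 9 alternative scalings, floors and probe set rules that gave a value, except Cdk4, whose log2 ratio became -0.73 without suffixed probe sets. For genes with 1 measured probe set only the scalings could have changed the direction. The count of members at least 2-fold above marginal zone, 1 as reported, was 0 with the floor at the 75th percentile, with a pseudocount instead of a floor and at 3-fold, and 2 at 1.5-fold. The higher floor left 5 members measured. The matching count on the marginal zone side was 0 in every setting run. Of the pathway list genes, 8 were at least 2-fold apart as reported, 15 with no floor, 17 with the floor at the 25th percentile, 2 with it at the 75th percentile, 22 at 1.5-fold and 2 at 3-fold. The shares of all measured genes moved too. On the marginal zone and follicular sides they were 4.39% and 4.86% as reported, and 10.2% and 11.3% with no floor. With the floor at the 25th percentile they were 11.6% and 12.5%, and at the 75th percentile 3.20% and 3.66%. With a pseudocount they were 3.43% and 4.05%, at 1.5-fold 13.6% and 15.8%, and at 3-fold 0.858% and 0.871%. Fewer genes are measured under a higher floor, and a looser threshold admits more. Without a floor the same 7695 genes were measured, and the ratio of a probe set with 1 signal under the floor can only widen. A pseudocount shrinks the ratio of any probe set with both signals over the floor. How much each of these adds to the shifts was not tested. A log2 ratio or median counted as moved when it shifted by at least the SD between probe sets of 1 gene, 0.43, and a count when it changed by more than 1.5 times. No paired analysis was possible because each group has only 1 array, and for the same reason no array could be left out. Ratios of genes near the floor, such as Ccnd3, Cdkn2d and Rbl2, are limited by low signal.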
